A study of Mus musculus with 15 samples.

Results

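The genes described here are 100 protein-coding mouse genes that were high in naive embryonic stem cells (ESCs) and did not come back to that level at any later stage measured on the way to primordial germ cell-like cells (PGCLCs), the in vitro counterpart of the founder cells of the germline. They were chosen from 22028 protein-coding genes, among 55536 genes in the count table, by a score on the measured values themselves. The score was the log2 of the mean CPM (a gene's counts scaled to a common library total) plus 1 in ESCs, minus the highest such value among epiblast-like cells (EpiLCs) and PGCLCs of days 2, 4 and 6, and the 100 highest scores were kept. Every contrast with ESCs was therefore used in the choice. Those contrasts are given as a description with no test, and the tests compare the 4 later groups with one another. A gene is said to be called, to rise or to fall where its adjusted p was below 0.05 and its fold change over 2.

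The study followed one culture system through its stages: naive ESCs, EpiLCs that stand for the formative epiblast, and PGCLCs at 3 days of induction, with 3 samples in each of the 5 groups. All groups carried a Stella-eGFP reporter and Dox-inducible transgenes for Prdm1, Prdm14, Tfap2c and Nanog together with the Dox-responsive activator, placed in clonal ESCs by piggyBac and, for Tfap2c, lentiviral vectors. The ESC group was kept with the MEK inhibitor PD0325901, the GSK3 inhibitor CHIR99021 and LIF. EpiLCs were made with Activin A, bFGF and KSR, and the PGCLC groups (D2PGCLC, D4PGCLC and D6PGCLC) were EpiLCs given Dox in medium with more KSR and no added cytokines and sorted for Stella-eGFP on days 2, 4 and 6. None of the 4 transgenes was among the 100 genes. Since whole populations were sequenced, fewer cells of a type and less RNA per cell cannot be told apart.

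As background, naive ESCs are held in their state by signals from outside. GSK3 inhibition stabilises β-catenin and turns on WNT target genes, LIF acts through the IL-6 receptor family and STAT3, and MEK inhibition blocks FGF signalling. Withdrawal of these signals moves cells to a formative state, and germ cell specification then switches on again a part of the naive network.

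The label of genes lost for good held only in the sense of the rule, since many of the genes were still measurable and some climbed again. All 3 ESC samples lay above all 12 later samples for each of the 100 genes, which the choice by mean levels made likely. The share of all genes that did so was not worked out. The score ran from 4.77 for Sp5 to 1.77 for Cd180. Just inside the limit were Nol3 (1.79), Anxa1 (1.78) and Cd180, and just outside it were Obox6 (1.77), Nefl (1.77) and Lmna (1.76), so the limit fell in a continuous series. ESC levels ranged from 2.40 to 685 CPM after TMM scaling (the scale of all gene levels below), with a median of 19.3. Across the 3 ESC samples the coefficient of variation had a median of 6.79% and reached 32.2% for Duox1, followed by Bst1, Tlx2, Kcnab3 and Flvcr2. Compared per kilobase of exon, the highest ESC levels were those of Tfcp2l1 (72.5 CPM per kb), Klf4 (56.6), Crxos (45.2) and Socs3 (33.6).

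The libraries held 22555021 to 42725681 counts. The formative and germ cell markers followed the labels as sums. The summed level of 5 EpiLC markers was 2815 to 3046 CPM in EpiLCs against 109 to 218 elsewhere. That of 7 PGCLC markers was 1001 to 1363 CPM in PGCLCs against 132 to 240 in ESCs and EpiLCs. Of the 7, 2 (Prdm1 and Tfap2c) were also transgenes. Prdm1 by itself was not higher on day 6, with means of 71.6 CPM in EpiLCs and 59.6 in D6PGCLCs. One library stood apart, since D6PGCLC replicate 1 had a count for 18061 genes against 21103 to 24343 in the other 14. It had 0 counts for 16 of the 100 genes, while the other later samples had 0 counts for 2 to 7 of them and the ESC samples for none. The median level, the counts of calls and the counts of highest later groups are therefore also given without it, and each D6PGCLC call printed for a single gene that was lost without it is named as such.

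A set of 3 upstream windows is given, chosen as examples and not as typical of the 100 genes. Each holds the 250 bases before the RefSeq gene start on build GRCm38.p6, 5′ to 3′ along the gene. The first belongs to Sp5, the gene with the highest score and a textbook β-catenin target, at chr2:70474673-70474922 on the plus strand. Capitals mark CTTTGAT and CTTTGTT, letters bound by TCF/LEF factors, read on both strands.
Sp5: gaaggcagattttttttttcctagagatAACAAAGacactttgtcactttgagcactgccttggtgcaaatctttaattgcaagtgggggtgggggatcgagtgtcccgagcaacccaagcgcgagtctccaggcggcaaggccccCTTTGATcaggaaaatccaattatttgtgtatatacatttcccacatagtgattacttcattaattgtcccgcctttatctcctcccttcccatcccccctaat
At least one of these motifs lay in 6.28% of the 300-base windows (250 before and 50 after the start) of 11630 tested protein-coding genes. The windows of Axin2, T and Wnt5b held neither motif. The other windows belong to Klf4, at chr4:55532476-55532725 on the minus strand, and Crxos, at chr7:15882367-15882616 on the plus strand, 2 transcription factor genes with their lowest mean on day 2 and a higher one on day 6. Here capitals mark each CG, the dinucleotide that DNA methylation targets.
Klf4: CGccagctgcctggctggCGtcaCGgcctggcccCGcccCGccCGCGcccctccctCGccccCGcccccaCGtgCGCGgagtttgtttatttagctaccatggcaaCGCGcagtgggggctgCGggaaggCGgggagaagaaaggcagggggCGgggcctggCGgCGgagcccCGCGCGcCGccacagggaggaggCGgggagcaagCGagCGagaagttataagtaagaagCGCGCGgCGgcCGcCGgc
Crxos: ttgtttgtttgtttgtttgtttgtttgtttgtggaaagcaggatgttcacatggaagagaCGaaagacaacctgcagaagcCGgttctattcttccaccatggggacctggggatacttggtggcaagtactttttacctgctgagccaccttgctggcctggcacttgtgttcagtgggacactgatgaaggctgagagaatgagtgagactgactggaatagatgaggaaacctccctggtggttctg
The 300-base windows held 40 CG dinucleotides at Klf4, 2 at Crxos and 6 at Sp5, beside a median of 20 over the 11630 windows. A match of letters is a description and not a bound site. Windows were at hand for 72 of the 100 genes, under 80%, so no comparison of the 100 genes with other genes by CG content or motif is reported.

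Most of the ESC level was gone in EpiLCs and never returned. Relative to ESCs, the median gene stood at 7.44% ± 0.571 in EpiLCs, 5.32% ± 0.622 on day 2, 6.86% ± 0.826 on day 4 and 9.12% ± 2.03 on day 6 of PGCLC induction (mean ± SD of the medians of 3 samples, CPM without TMM scaling). The D6PGCLC value was 10.0% without replicate 1. On the same scale, genes under 5% of their ESC level numbered 36, 48, 33 and 25 in the 4 groups in that order. Those at 10% or more numbered 41, 26, 33 and 50. The higher median on day 6 than in EpiLCs depended on the scale. With TMM scaling the fitted median log2 fold change of D6PGCLCs over EpiLCs was -0.00866, with 49 genes above 0 and 51 below. No later mean exceeded 28.7% of the ESC level on the TMM scale, and the median of each gene's highest later mean was 13.7%.

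**Figure D1:**
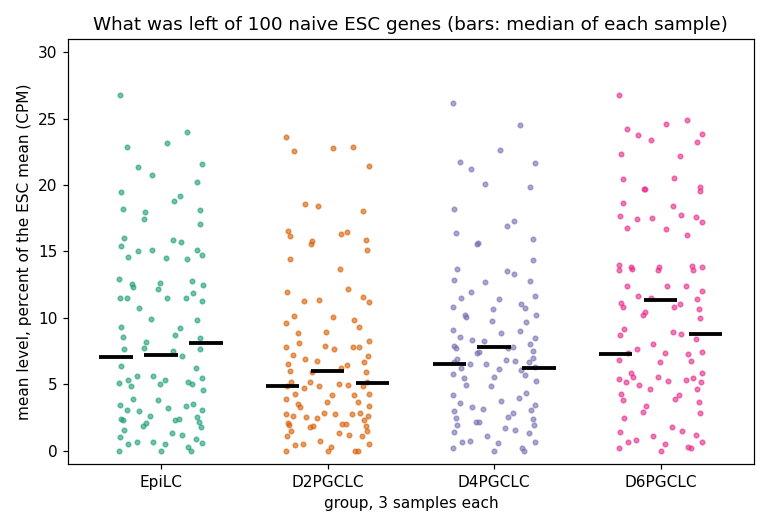
Each point is 1 of the 100 genes, at its mean CPM in a later group as a percent of its ESC mean (vertical axis, linear), and the black bars are the medians of the 3 samples of that group in the order of replicates. All points lie under 30%, and the sample medians run from 4.84% in a D2PGCLC sample to 11.3% in a D6PGCLC sample.

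The later group with the highest mean differed between genes. The highest later mean was in EpiLCs for 41 genes, in D2PGCLCs for 11, in D4PGCLCs for 5 and in D6PGCLCs for 43, where Cd180, at 0 in all 12 later samples, is counted under EpiLCs by default. With TMM scaling these counts were 46, 14, 5 and 35, so EpiLCs and D6PGCLCs changed places in the order. Without D6PGCLC replicate 1, and without TMM scaling, they were 40, 10, 3 and 47.

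**Figure D2:**
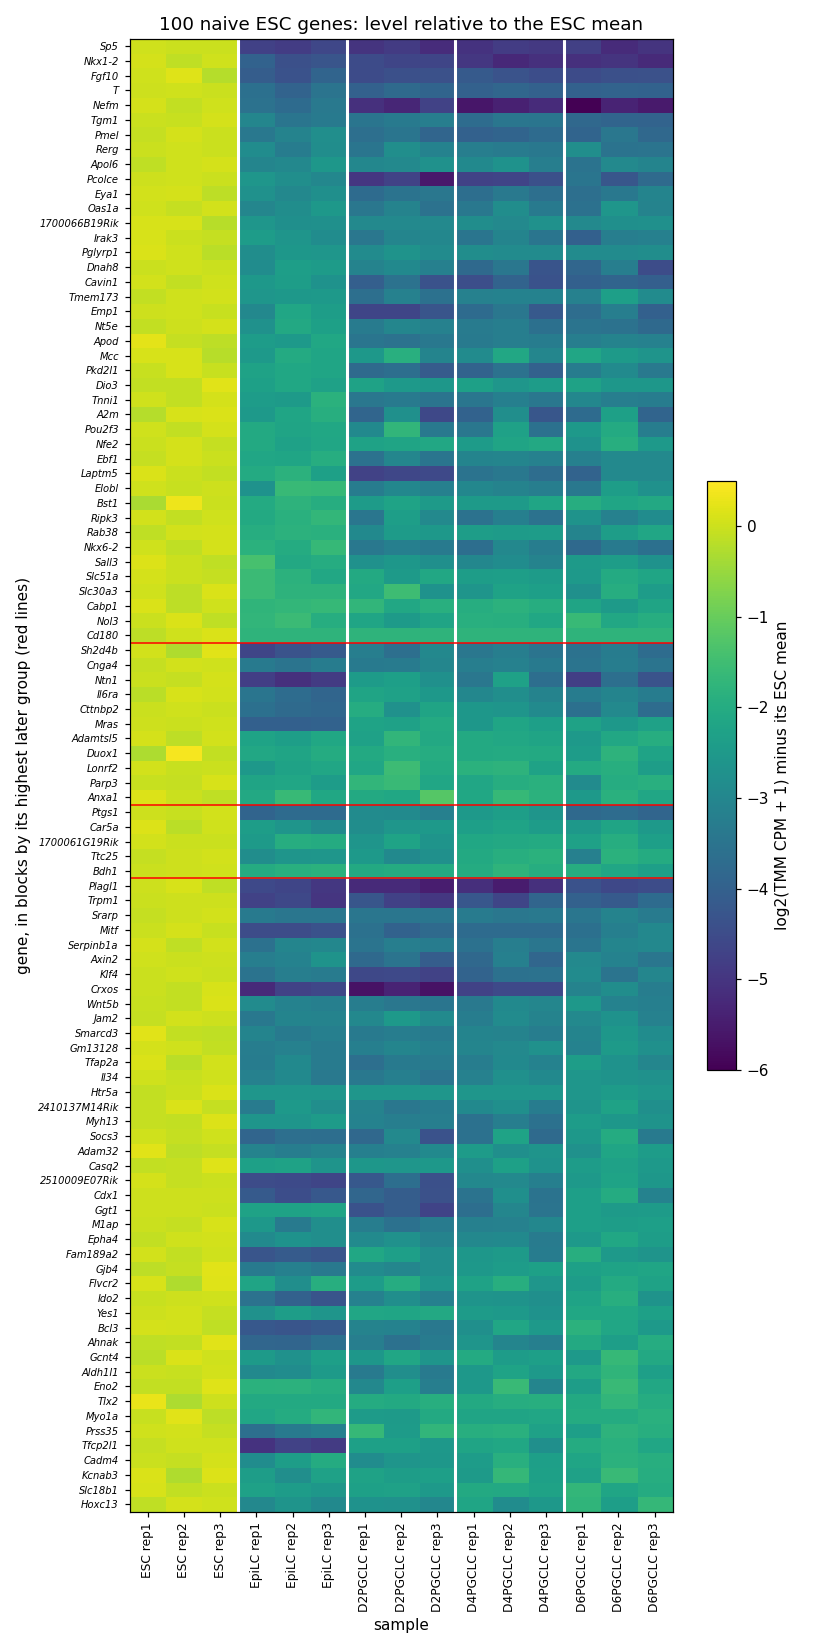
Rows are the 100 genes and columns the 15 samples, and colour gives the log2 of TMM CPM plus 1 minus its ESC mean. Red lines part the genes by the later group with their highest mean, with blocks of 41, 11, 5 and 43 genes from top to bottom. Nefm, Nkx1-2 and Sp5 stay dark, while Tfcp2l1, Crxos and Cdx1 lighten.

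Some WNT pathway genes were among the strongest losses. Of 16 listed WNT targets only 4 were among the 100, and others, such as Lef1 and Tcf7, were higher in EpiLCs than in ESCs. Sp5, a transcription factor induced by β-catenin, was at 37.4, 35.9 and 35.6 CPM in the ESC samples and between 0.0220 and 0.514 CPM in all 12 later samples. That is 1 to 14 counts against 820 to 1063, and none of the 5 tests between later groups called Sp5. T, or brachyury, which drives mesoderm and acts upstream of germ cell genes in cytokine-induced PGCLCs, was at 14.8, 15.2 and 14.5 CPM in ESCs and at 0.306, 0.0329 and 0.404 CPM in EpiLCs. In D6PGCLCs T had 0 to 2 counts a sample, against 346 to 434 in ESCs. Axin2, a feedback inhibitor of the pathway, was held at a higher remnant, with 142, 137 and 140 CPM in ESCs, 14.0, 15.2 and 21.3 in EpiLCs, 9.29, 11.5 and 7.26 in D2PGCLCs and 17.3, 15.1 and 11.8 in D6PGCLCs. Wnt5b, a WNT ligand, kept 6.15% to 9.95% of its ESC level.

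Cdx1, a caudal-type homeobox gene under WNT control, went the other way after EpiLCs. It was at 29.8, 30.0 and 29.7 CPM in ESCs, 0.727, 0.395 and 0.661 in EpiLCs, 1.13, 0.824 and 0.480 in D2PGCLCs, 1.70, 3.52 and 1.69 in D4PGCLCs and 5.10, 6.65 and 2.52 in D6PGCLCs. The D4PGCLC and D2PGCLC samples did not overlap, nor did those of D6PGCLCs and D2PGCLCs. Cdx1 rose from D2PGCLCs to D6PGCLCs (log2 fold change 2.55 ± 0.37 SE, adjusted p = 3.07e-05), and still stood at 15.9% of its ESC level. The part of the rise up to D4PGCLCs (1.50 ± 0.38, adjusted p = 0.0157) was no longer called without D2PGCLC replicate 3 (1.22) or D4PGCLC replicate 2 (1.06). Of 15 tested genes on a wider list of WNT targets, 4 of them among the 100, 1 was called higher and 6 lower in D2PGCLCs than in EpiLCs (11.0% and 14.4% of all genes tested), and 4 were called higher and 1 lower in D6PGCLCs than in D2PGCLCs (10.9% and 2.75%).

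The LIF and IL-6 pathway had 5 genes, grouped by known function after the members had been seen. Of these, 3 (Tfcp2l1, Bcl3 and Socs3) were called higher in D6PGCLCs than in EpiLCs, beside 15.9% of all genes tested. The Socs3 call was lost without D6PGCLC replicate 2 (0.92). Klf4 and Il6ra were not called in that contrast. Tfcp2l1, a STAT3-induced transcription factor of the naive network, was at 655, 703 and 696 CPM in ESCs and 19.8, 25.0 and 22.5 in EpiLCs. It then stood at 138, 137 and 118 CPM in D2PGCLCs and at 172, 185 and 154 in D6PGCLCs, all 9 PGCLC samples above the EpiLC samples and below the ESC samples. It rose from EpiLCs to D2PGCLCs by 2.54 ± 0.14 on the log2 scale (adjusted p = 3.1e-11). Bcl3, an atypical IκB protein induced by STAT3, was at 34.3, 33.8 and 29.6 CPM in ESCs, 0.804, 0.723 and 0.881 in the EpiLC samples and 8.43, 6.58 and 5.02 on day 6, when it lay above EpiLCs by 3.06 ± 0.25 (adjusted p = 5.38e-09). Il6ra, a ligand-binding receptor chain for IL-6, had its later peak on day 2, rising by 2.13 ± 0.24 over EpiLCs (adjusted p = 4.82e-07) and falling by 1.23 ± 0.21 from D2PGCLCs to D6PGCLCs (adjusted p = 0.000191).

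Klf4, a reprogramming factor and a direct target of STAT3, followed a dip. It was at 171, 177 and 170 CPM in ESCs, 14.0, 17.8 and 16.8 in EpiLCs, 6.16, 6.27 and 5.55 in D2PGCLCs, 10.5, 13.5 and 13.9 in D4PGCLCs and 22.7, 14.3 and 20.4 in D6PGCLCs. The D2PGCLC samples were below those of every other group. Klf4 fell from EpiLCs to D2PGCLCs (-1.44 ± 0.15, adjusted p = 2.98e-07) and rose from there to D6PGCLCs (1.67 ± 0.15, adjusted p = 2.2e-07), ending at 11.1% of the ESC level. Of 16 listed naive factors only Klf4 and Tfcp2l1 were among the 100: Esrrb was at 590 ± 9.16 CPM in ESCs, dropped to 66.9 ± 4.62 in EpiLCs and was back at 620 ± 36.9 on day 2 (mean ± SD, n = 3), and Nr5a2 at 116 ± 5.07, 19.6 ± 2.88 and 118 ± 17.6. On that list 10 genes were called higher and 3 lower in D2PGCLCs than in EpiLCs, beside 11.0% and 14.4% of all genes tested. Of 12 listed LIF and STAT3 genes, 4 of them among the 100, the counts in that contrast were 5 and 2.

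Socs3, the feedback inhibitor of STAT3 signalling, was at 99.4, 92.5 and 99.4 CPM in ESCs and 5.62, 6.97 and 6.86 in EpiLCs. It was at 6.04, 11.8 and 3.78 CPM in D2PGCLCs, 7.19, 19.9 and 6.24 in D4PGCLCs and 15.8, 23.3 and 8.84 in D6PGCLCs, where replicate 2 was the highest on each day. Socs3 was called higher in D6PGCLCs than in D2PGCLCs (1.17 ± 0.40, adjusted p = 0.0279), although those samples overlapped. The call was lost with DESeq2 (1.16) and without D2PGCLC replicate 1 (1.05), D2PGCLC replicate 3 (0.85) or D6PGCLC replicate 2 (0.78).

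**Figure D3:**
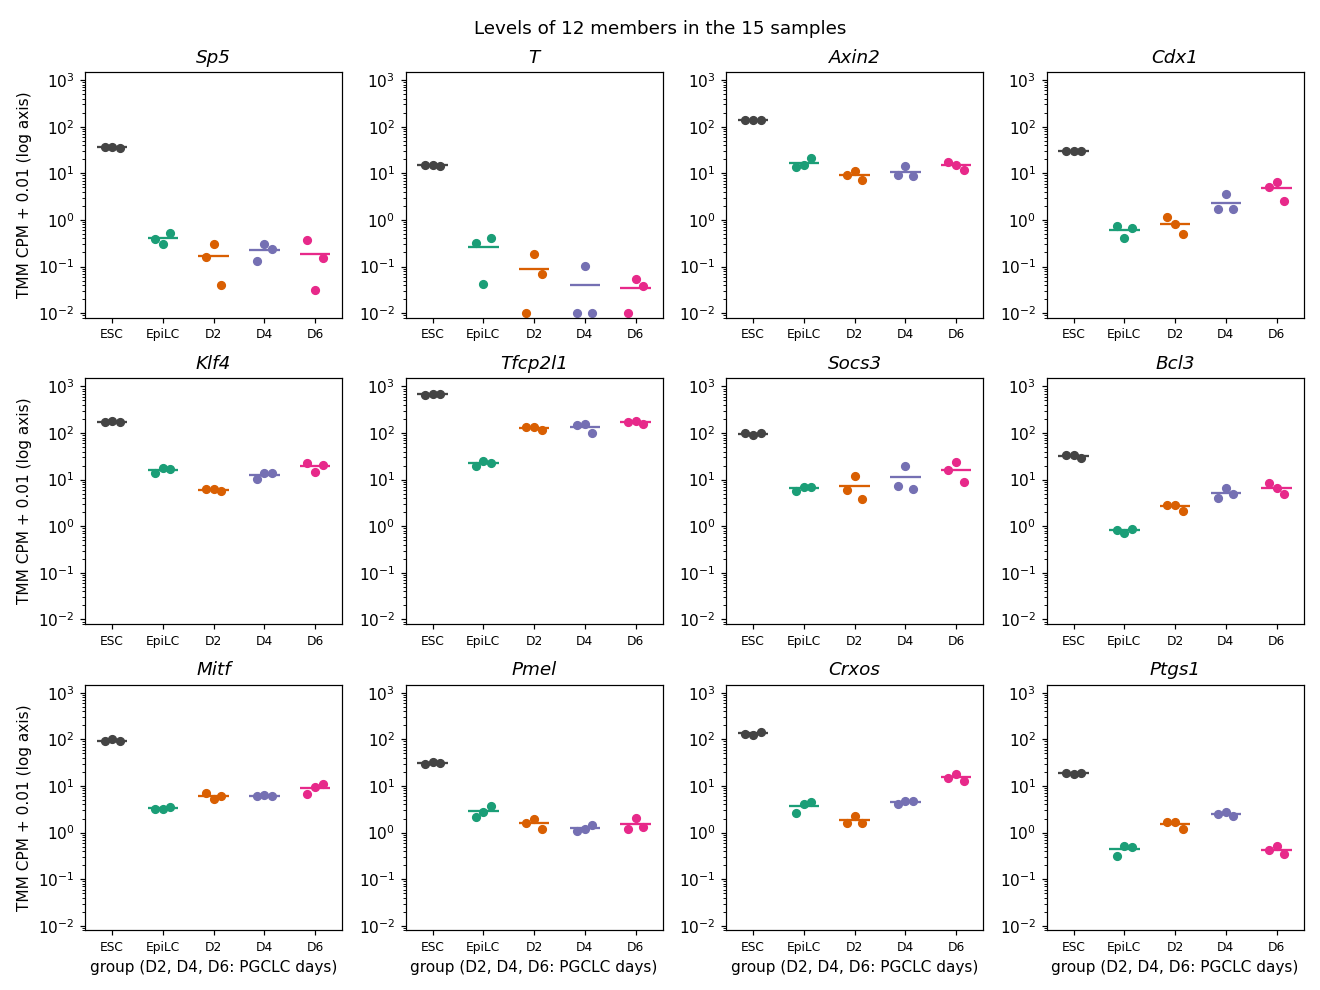
Levels of 12 genes in the 15 samples, as TMM CPM plus 0.01 on a log axis, with the group mean as a line. Sp5 and T stay under 1 CPM after ESCs, Tfcp2l1 and Bcl3 step up at D2PGCLCs, Klf4 and Crxos are lowest at D2PGCLCs, and Ptgs1 is highest among the later groups at D4PGCLCs.

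A small set of pigment cell genes was present in naive ESCs, grouped here by known function after the members had been seen. Mitf, the master transcription factor of melanocytes, was at 92.2, 99.3 and 90.8 CPM in ESCs, 3.25, 3.22 and 3.60 in the EpiLC samples and 6.78, 9.36 and 11.1 on day 6. It rose over EpiLCs by 1.44 ± 0.16 (adjusted p = 3.73e-07). Trpm1, a cation channel and known MITF target, was at 31.7, 32.7 and 32.6 CPM in ESCs, 0.268, 0.395 and 0.0367 in the EpiLC samples and 1.10, 0.881 and 1.50 on day 6, when it lay above EpiLCs by 2.26 ± 0.57 (adjusted p = 0.0023). Pmel, which forms the fibrils of the melanosome, was at 30.1, 33.3 and 31.2 CPM in ESCs and 1.18, 2.05 and 1.33 in D6PGCLCs. It was below its EpiLC level on day 2 by less than the fold cutoff (-0.86 ± 0.24, adjusted p = 0.00648) and was called in no contrast. Pmel overlaps Dgka and Cdk2 on the other strand. Rab38, a small GTPase of melanosome traffic, fell from EpiLCs to D2PGCLCs (-1.76 ± 0.64, adjusted p = 0.0266), a call lost without D2PGCLC replicate 1 (-1.32), EpiLC replicate 2 (-1.70) or EpiLC replicate 3 (-1.75).

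Homeobox and other transcription regulators numbered 13 by the same kind of grouping, and went different ways. Nkx1-2, a gene of the caudal progenitors, was at 44.7, 38.7 and 42.6 CPM in ESCs, 1.76, 1.02 and 1.21 in EpiLCs, 0.889, 0.717 and 0.720 in D2PGCLCs and 0.263, 0.330 and 0.142 in D6PGCLCs. It was the sole member called lower in D4PGCLCs than in D2PGCLCs (-1.58 ± 0.35, adjusted p = 0.00656), and it was not called when only the 2 groups were fitted (-1.59). Crxos, an oocyte and early embryo homeobox gene, did the reverse, with 132, 125 and 143 CPM in ESCs, 2.56, 4.11 and 4.48 in EpiLCs, 1.59, 2.29 and 1.62 in D2PGCLCs, 4.12, 4.67 and 4.73 in D4PGCLCs and 14.8, 18.2 and 13.1 in D6PGCLCs. Day 6 samples lay above those of all other later groups, and Crxos was higher in D6PGCLCs than in D2PGCLCs by 3.07 ± 0.18 (adjusted p = 2.35e-09).

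Hoxc13 rose over the same interval (2.52 ± 0.58, adjusted p = 0.00226), as did Tfap2a (1.40 ± 0.30, adjusted p = 0.00131), a neural crest and surface ectoderm factor and a paralogue of the Tfap2c transgene. In contrast, Nkx6-2 (-2.74 ± 0.43, adjusted p = 3.2e-05), Ebf1, a B cell factor (-2.29 ± 0.30, adjusted p = 3.47e-06), and Eya1 (-1.97 ± 0.42, adjusted p = 0.000672) fell between EpiLCs and D2PGCLCs. Plagl1, an imprinted zinc finger gene and the second-ranked member, kept 1.99% to 3.97% of 187 CPM and passed the fold cutoff in no contrast, although D6PGCLCs lay above D2PGCLCs by 1.00 ± 0.14 (adjusted p = 3.48e-05). Tlx2, a homeobox gene of enteric neurons, had 0 counts in all EpiLC samples and 0 to 3 counts in each D2PGCLC and D4PGCLC sample, against 54 to 111 in ESCs.

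Ligands, receptors and guidance genes included near-complete losses and day 2 peaks. Fgf10, a growth factor of limb and lung buds, was at 22.1, 25.0 and 18.6 CPM in ESCs, 0.344, 0.0987 and 0.514 in EpiLCs and 0 to 3 counts in each D2PGCLC sample, against 555 to 606 in ESCs. Ntn1, the axon guidance cue netrin-1, was at 121, 117 and 130 CPM in ESCs, 3.48, 2.60 and 3.19 in EpiLCs, 21.8, 23.5 and 17.6 in D2PGCLCs, 10.6, 24.3 and 8.82 in D4PGCLCs and 3.47, 9.09 and 5.07 in D6PGCLCs. It rose into D2PGCLCs by 2.76 ± 0.35 (adjusted p = 1.93e-06) and fell by 1.29 ± 0.31 from D4PGCLCs to D6PGCLCs (adjusted p = 0.0111). The fall was no longer called with only the 2 groups fitted (-1.29), or without D4PGCLC replicate 2 (-0.71) or D6PGCLC replicate 1 (-1.02). Il34, a ligand of the CSF1 receptor, rose from D2PGCLCs to D6PGCLCs (1.50 ± 0.30, adjusted p = 0.000712). Epha4, an ephrin receptor, kept 11.3% to 19.0% of its ESC level, and the serotonin receptor gene Htr5a had 0 counts in all EpiLC, D2PGCLC and D4PGCLC samples against 112 to 164 in ESCs. Set at a floor of 3 counts in the shallowest EpiLC sample, Htr5a was at least 46.5-fold lower in EpiLCs.

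Immune and cell death genes, 10 by the same grouping, had 4 called lower and 1 higher from EpiLCs to D2PGCLCs, while 27 of the 100 members were called lower and 13 higher (14.4% and 11.0% of all genes tested). Laptm5, a lysosomal protein of blood cells, was at 41.7, 37.6 and 35.6 CPM in ESCs, 8.61, 10.0 and 6.94 in EpiLCs, 0.490, 0.609 and 0.660 in D2PGCLCs and 2.43, 2.71 and 2.06 in D4PGCLCs, with no overlap between these groups. It fell by 3.85 ± 0.31 (adjusted p = 6.06e-09) and then rose by 2.03 ± 0.33 (adjusted p = 0.000647). Tmem173, which encodes the DNA sensor adaptor STING, and Ripk3, the kinase of necroptosis, fell by 1.72 ± 0.33 (adjusted p = 0.000251) and 1.24 ± 0.28 (adjusted p = 0.001), where Ripk3 was not called without D2PGCLC replicate 1 (-0.93). Ido2, a tryptophan-degrading enzyme, rose at that step by 1.43 ± 0.30 (adjusted p = 0.00051). Pglyrp1, a peptidoglycan-binding protein, had 0 to 1 counts in each D4PGCLC and D6PGCLC sample against 146 to 192 in ESCs, and Cd180, a toll-like receptor homologue, had 0 counts in all 12 later samples against 56 to 81.

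Neuronal and contractile genes went different ways after EpiLCs. Nefm, a neurofilament subunit, was at 107, 94.7 and 103 CPM in ESCs, 7.73, 6.71 and 8.95 in EpiLCs, 2.02, 1.61 and 2.91 in D2PGCLCs and 0.420, 1.50 and 1.22 in D6PGCLCs. It fell into D2PGCLCs by 1.82 ± 0.26 (adjusted p = 7.61e-06) and from there to D6PGCLCs by 1.05 ± 0.30 (adjusted p = 0.0102). The second fall was no longer called with only the 2 groups fitted (-1.05), or without D2PGCLC replicate 3 (-0.79) or D6PGCLC replicate 1 (-0.68). Its annotated neighbour on the opposite strand, Nefl, overlaps it and was the second gene outside the limit. Tnni1, slow skeletal troponin I, was at 10.5, 9.51 and 10.9 CPM in ESCs, 1.11, 1.05 and 2.13 in the EpiLC samples and 0.0613, 0.107 and 0 on day 2, a fall of 4.64 ± 0.63 (adjusted p = 5.79e-06). On day 6 Tnni1 was at 0.420, 0.220 and 0.170 CPM, called higher than on day 2 (2.25 ± 0.75, adjusted p = 0.0243). This call was lost without D6PGCLC replicate 1 (1.81), D2PGCLC replicate 1 (2.35) or D2PGCLC replicate 3 (1.65). Tnni1 had 29 to 58 counts a sample in EpiLCs, 0 to 3 on day 2 and 6 to 16 on day 6. The sizes of both changes thus rest on day 2 values at the floor. Myh13, a myosin of eye muscles, was at 89.8, 89.0 and 107 CPM in ESCs, 7.03, 9.25 and 7.05 on day 4 and 17.1, 15.3 and 14.3 on day 6, called higher at the very edge of the fold cutoff (1.00 ± 0.12, adjusted p = 6.42e-05). That call was lost without D6PGCLC replicate 1 (0.93) and under most other omissions of 1 sample.

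Enzymes and transporters, 12 by the grouping, included a transient. Ptgs1, cyclooxygenase 1 of prostaglandin synthesis, was at 18.6, 17.9 and 19.4 CPM in ESCs, 0.306, 0.493 and 0.477 in EpiLCs, 1.72, 1.65 and 1.17 in D2PGCLCs, 2.46, 2.80 and 2.23 in D4PGCLCs and 0.420, 0.506 and 0.340 in D6PGCLCs. The D4PGCLC samples lay above all other later samples. Ptgs1 rose into D2PGCLCs by 1.81 ± 0.26 (adjusted p = 1.26e-05) and fell by 2.54 ± 0.24 from D4PGCLCs to D6PGCLCs (adjusted p = 4.68e-06). Ggt1, an enzyme of glutathione breakdown, dipped instead, with 9.34, 9.27 and 9.65 CPM in EpiLCs, 1.41, 1.90 and 0.900 in D2PGCLCs and 8.85, 8.04 and 8.16 in D6PGCLCs against 48.7, 48.4 and 47.8 in ESCs. Bdh1, an enzyme of ketone bodies, held 22.0% to 25.9% of its ESC level in all 4 later groups, and its adjusted p was 0.0692 or more in each contrast.

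The tests between later groups were then counted over the 100 genes. In D2PGCLCs against EpiLCs 13 genes were called higher and 27 lower, beside 11.0% and 14.4% of all 18090 genes tested. From D2PGCLCs to D4PGCLCs 11 were called higher and 1 lower, beside 2.56% and 0.376%. From D4PGCLCs to D6PGCLCs 4 were called higher and 3 lower, beside 2.29% and 0.785%, and without D6PGCLC replicate 1 the counts were 4 and 2.

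Between D2PGCLCs and D6PGCLCs 29 genes were called higher and 7 lower, beside 10.9% and 2.75% of all genes tested, and the median log2 fold change was 0.59 beside 0.00. Without D6PGCLC replicate 1 the counts were 31 and 7. Between EpiLCs and D6PGCLCs 21 were called higher and 21 lower, beside 15.9% and 12.0%, and without that sample 25 and 21 were. These contrasts share samples, and the rule caps the level in every later group, so their counts are not independent of one another. All 100 genes passed the filter on low counts through their ESC samples, and 20 to 29 of them, by contrast, had a mean under 20 counts in both groups compared.

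The rise from day 2 to day 6 ran beside a rise in some endoderm markers. Of 5, 3 (Gata4, Gata6 and Sox17) were called higher, beside 10.9% of all genes tested, and none was at 0 in all D6PGCLC samples. The summed level of the 5 was 1.15 to 1.20 CPM in D2PGCLCs and 9.23 to 17.3 in D6PGCLCs. Gata6 had the largest part of this rise, with means of 0.244 and 9.25 CPM, and Foxa2 and Cubn were not called. Of 4 tested neural markers 1 was called higher, and the 5 listed summed to 3.66 to 5.55 CPM and then 6.69 to 10.6, with Dcx at 0 in D6PGCLCs. Of 4 tested fibroblast markers 1 was called higher, and the 5 listed summed to 0.889 to 2.19 CPM and then 1.47 to 2.05. Of 4 tested mesoderm markers, T among them, 1 was called higher, and the 5 listed summed to 1.20 to 2.47 CPM and then 1.76 to 3.79. Their part in the result was not tested.

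**Figure D4:**
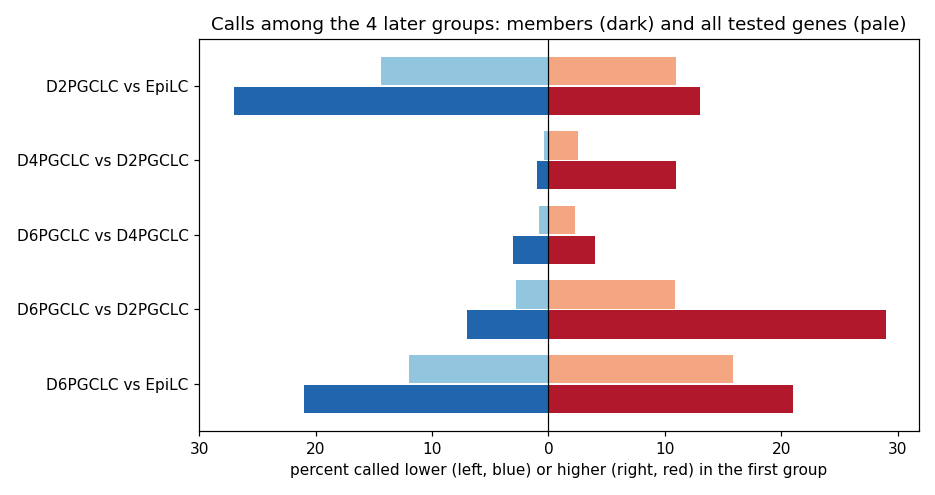
Bars give the percent of the 100 genes (dark) and of all 18090 genes tested (pale) called lower, to the left, or higher, to the right, in the first-named group of each contrast. For D6PGCLC against D2PGCLC the dark bar reaches 29 and the pale bar 10.9 on the higher side.

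Over the 3 successive steps, 53 genes were called at none, 22 were called lower on entry to D2PGCLCs and at no later step, and 9 were called higher there and at no later step. Laptm5, Emp1, Klf4, Crxos and Ggt1 were called lower at that step and higher at the next. The lower call of Crxos was lost without EpiLC replicate 2 (-0.95) or 3 (-0.88) or D2PGCLC replicate 1 (-0.94) or 3 (-0.95). The higher call of Emp1 was lost with only the 2 groups fitted (1.05) and without D2PGCLC replicate 1 (0.96), D2PGCLC replicate 2 (0.98) or D4PGCLC replicate 2 (0.81). Some 35 genes were called in none of the 5 contrasts, Sp5, Plagl1 and Axin2 among them. Neither the patterns over the steps nor this count were worked out for all genes tested. Whether they differ from those of other genes was therefore not tested.

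The PGCLC samples with the number 2 were often the highest. On all 3 days replicate 2 had the highest level for 21 of the 100 genes, replicate 1 for 2 and replicate 3 for 2, beside 8.45%, 4.02% and 7.69% of all tested genes. A2m, the protease inhibitor alpha-2-macroglobulin, was at 0.735, 2.83 and 0.0600 CPM in D2PGCLCs, 0.637, 2.71 and 0.344 in D4PGCLCs and 0.920, 4.21 and 0.709 in D6PGCLCs. Pou2f3, a tuft cell factor, was at 4.57, 11.6 and 3.09 CPM, 2.94, 7.62 and 2.52 CPM and 6.52, 9.29 and 3.43 CPM on these days. A2m, Pou2f3 and Eno2 were named for this pattern after their values were seen. In ESCs replicate 2 was the lowest of the 3 for Socs3 and Pou2f3.

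**Figure D5:**
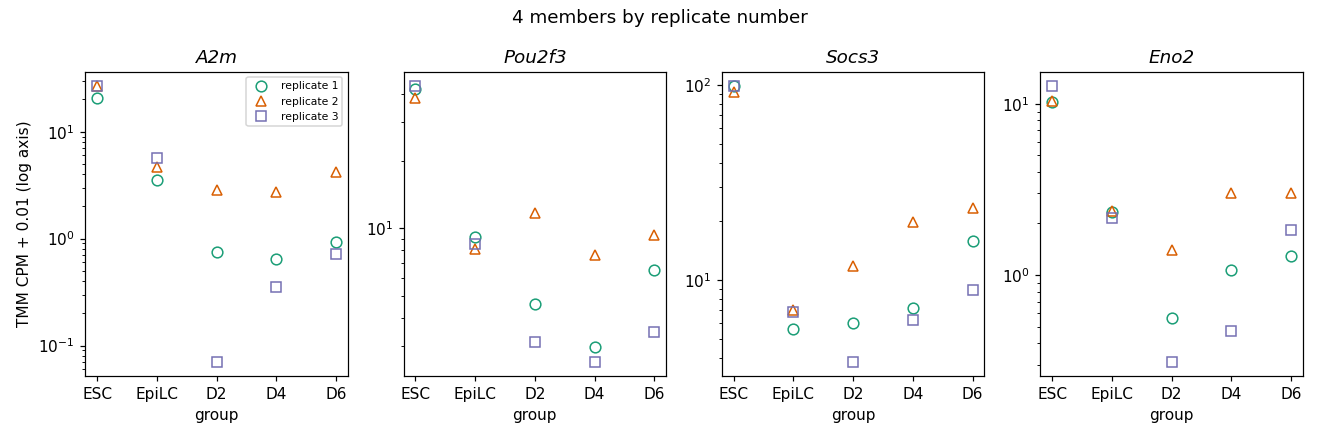
Levels of 4 genes by replicate number, as TMM CPM plus 0.01 on a log axis. Replicate 2 (triangles) is the highest of the 3 in D2PGCLCs, D4PGCLCs and D6PGCLCs for A2m, Pou2f3, Socs3 and Eno2.

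In the genome the 100 genes lay on all 19 autosomes and none was on the X chromosome, which held 3.87% of 14775 tested protein-coding genes. Chromosome 6 held 10 of them, beside 4.76% of the tested protein-coding genes. Their median exon length was 3517 bases, beside 4320. Within 500 kb of each other lay 7 pairs: Ttc25 and Cavin1, Tgm1 and Ripk3, Hoxc13 and Nfe2, Apod and Bdh1, 1700066B19Rik and Tmem173, M1ap and Tlx2, and Ido2 and Adam32. The closest, 1700066B19Rik and Tmem173 on chromosome 18, were 2.81 kb apart. A total of 14 members overlapped another gene with 100 or more counts in every ESC sample, among them Nefm, Pmel, Dnah8, Irak3, Wnt5b and Cd180. How the counting used strand is not given in the sources used here, so reads of such pairs on opposite strands may not have been parted.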

How the data were processed

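RNA was extracted with TRIzol and libraries were made with the NEBNext Ultra II Directional kit from 3 samples each of ESCs, EpiLCs, D2PGCLCs, D4PGCLCs and D6PGCLCs. The authors deposited raw read counts per gene in 1 table. The submitters' processing notes name Trim Galore, FastQC, STAR and mm10, and the counter, its annotation release and its strand setting are not given in the sources used here. Gene IDs matched GENCODE M21 for 55536 of 55536 rows. The 15 libraries held 22555021 to 42725681 counts, and intervals or floors (3 counts) cover counting error only.

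Genes were ranked on CPM of the whole column. Genes passing filterByExpr (minimum count 10) numbered 18090, and edgeR 4.0.16 in R 4.3.3 was run on all 15 samples with TMM scaling, 1 dispersion fit and quasi-likelihood tests of 5 contrasts among the later groups, with Benjamini-Hochberg adjustment over all 18090 genes, and checked on simulated data. TMM CPM means CPM divided by the TMM factor. Alternatives were DESeq2 1.42.0, its size factors, no filter, a replicate block, only the 2 groups compared, no fold cutoff, 50 or 200 genes, and leaving out each sample. Counting highest later groups without D6PGCLC replicate 1 was added after seeing the data. Nothing says that replicates were separate cultures, so p-values may measure technical spread. Deviations of same-numbered samples correlated by 0.255 to 0.299 between D4PGCLCs and D2PGCLCs, and those of differently numbered samples by -0.230 to -0.0555. Deviations were taken from the group mean, so these values are not independent. A differently numbered pair, EpiLC replicate 2 with D4PGCLC replicate 1, reached 0.259. Whether the numbers mark pairs was therefore not settled. Between D6PGCLCs and D4PGCLCs the correlation of same-numbered samples was 0.0187 for replicate 1, 0.358 for replicate 2 and 0.350 for replicate 3. Between D6PGCLCs and D2PGCLCs it was 0.0601, 0.320 and 0.177 in that order. For same-numbered samples with EpiLCs it was at most 0.0838 in the contrasts tested. The tests above used no replicate block.

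The members and lists were chosen with earlier results of these data known. Genes named were the 20 highest scores, up to 5 called genes per direction and contrast with a mean of 20 counts, members of the fixed lists, 3 genes on each side of the limit, the 10 highest in ESCs, neighbours within 500 kb, genes at 0 later and the 5 most variable in ESCs. Others were chosen for known function after their values were seen, as were the function groups. Promoter windows were from RefSeq.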

Additional observations from a re-analysis of the deposited data

How the results depend on the processing

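None of the 137 calls of single genes reversed. Called genes no longer past the threshold numbered 5 of 137 with DESeq2, 2 with its size factors in edgeR, 3 without the filter, 19 with only the 2 groups fitted, and 45 in at least 1 fit leaving out a sample. The replicate block left the counts from D2PGCLC to D4PGCLC at 11 higher and 1 lower and changed 1 call, that of Gcnt4 in D6PGCLC against EpiLC. From D2PGCLC to D4PGCLC, 7 genes were called higher and 0 lower with only the 2 groups fitted, 4 lower without the fold cutoff and 2% lower among the 50 highest-scoring genes. From D4PGCLC to D6PGCLC, 7 were called higher by DESeq2 and 14 without the fold cutoff, 1 lower with 2 groups and 6% lower in the top 50, which from D2PGCLC to D6PGCLC gave 14% lower. In the top 50 and top 200 the median level was 4.31% and 12.6% of ESCs in EpiLCs, 3.32% and 8.71% in D2PGCLCs, 5.17% and 10.7% in D4PGCLCs and 6.15% and 15.1% in D6PGCLCs, by construction of the score. The cause of the other shifts was not tested.

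Leaving out 1 sample gave 7 to 12 higher and 1 to 3 lower from D2PGCLC to D4PGCLC, 2 to 7 higher and 1 to 7 lower from D4PGCLC to D6PGCLC, and 23 to 31 higher and 6 to 12 lower from D2PGCLC to D6PGCLC. It gave 13 to 14 higher and 20 to 33 lower from EpiLC to D2PGCLC, and 17 to 25 higher and 19 to 27 lower from EpiLC to D6PGCLC. The shifts over 1.5 times came without D2PGCLC replicate 3 or D4PGCLC replicate 2 (7 higher, D2PGCLC to D4PGCLC), D2PGCLC replicate 1 or D4PGCLC replicate 2 (2 and 3 lower), any ESC sample (2 higher, D4PGCLC to D6PGCLC), D4PGCLC replicate 2 (7 higher and 1 lower) and D6PGCLC replicate 2 (7 lower, and 12 lower from D2PGCLC to D6PGCLC). Of the 100 genes, 95 to 100 remained when the ranking left out a sample. Depth limits the genes with few counts after ESCs.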

Other observations

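A list of 13 tested genes of the two-cell-like state, which naive ESC cultures are known to enter at a low rate, held none of the 100 genes. All 13 were called lower in D2PGCLCs than in EpiLCs, beside 14.4% of all genes tested. In D6PGCLCs 9 were called higher than in D2PGCLCs, beside 10.9%. Their counts differed widely: EpiLC samples had 186 to 301 for Zscan4c but 7 to 13 for Tdpoz3. In D2PGCLC samples these genes had 1 to 6 and 0 counts. Their summed level, with 15 listed genes in the table, was 5.66 to 6.42 CPM in ESCs, 40.3 to 60.4 in EpiLCs, 0.630 to 0.717 in D2PGCLCs and 6.35 to 14.6 in D6PGCLCs. Zscan4 genes on this list are near-identical copies, so reads may have been divided between them.

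The genes that follow were picked from the lists after their values were seen. Among WNT targets outside the 100, Notum, a secreted WNT inhibitor, was at 76.8 ± 8.30 CPM in ESCs, 14.5 ± 2.33 in EpiLCs, 39.6 ± 0.276 in D2PGCLCs and 13.7 ± 6.81 in D6PGCLCs (mean ± SD, n = 3). Lef1, a β-catenin partner, was at 27.4 ± 2.65 CPM in ESCs and 122 ± 2.62 in EpiLCs. Stat3, at rank 111 of the score, was at 162 ± 7.14 CPM in ESCs, 33.1 ± 2.51 in EpiLCs, 22.1 ± 0.404 in D2PGCLCs and 44.9 ± 1.18 in D6PGCLCs. Tbx3, a naive factor, stood at 6.99 ± 0.693 CPM in EpiLCs and 74.7 ± 8.56 on day 6, against 155 ± 4.14 in ESCs.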
